A study of Drosophila melanogaster with 20 samples.

Results

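The 7 genes described here encode parts of the contractile apparatus of fly muscle: the thin-filament genes Act88F, TpnC4, TpnC41C, up and Mp20, the paramyosin gene Prm and the LIM-domain gene Mlp60A. They were followed in dissected brains of Drosophila melanogaster on Affymetrix Drosophila 2 arrays, which report 1 signal per probe set, a group of short probes for a transcript. Members were the probe sets whose symbol in the platform annotation is exactly that of a listed gene. This gave 10 of the 18769 probe sets that are not controls, with 3 for Mlp60A, 2 for Prm and 1 for each other gene. Of the 10, 8 passed the filter on low signal, at least 1 for each gene, against 9806 of all probe sets. The genes were selected on their log2 differences between the groups below, seen in an earlier look at these same arrays, so their differences between groups are given as descriptions without a test.

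The study has 4 groups of 5 arrays: wildtype flies of the line labelled 5905 at 3 d and at 20 d, and miR-34 null flies of the line labelled 0110 at the same ages. miR-34 belongs to the microRNAs, small RNAs that pair with messenger RNAs and reduce their output. All flies were kept on the same food and aged without treatment. With a single line per genotype, the missing miR-34 and any other difference of the lines cannot be told apart. The labels give neither the sex of the flies nor how many brains went into a sample. Nor do they state that repeats are separate sets of flies, and errors and p-values therefore cover the variation among these repeats alone, which could be technical.

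Striated muscle contracts when myosin of the thick filaments pulls on actin of the thin filaments. In resting muscle the thin filament is held off by tropomyosin and the troponin complex, in which troponin C senses calcium, troponin I inhibits and troponin T anchors the complex to tropomyosin. Insects make separate forms of several of these proteins for flight muscle and for other muscles, and their thick filaments have a core of paramyosin. Muscle is no part of the brain itself, and the muscles of a fly head lie around the mouthparts, the gut and the antennae.

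The arrays shared 1 trimmed mean but not 1 median. In wild type the array medians did not overlap between the ages, at 19.1 to 21.4 units at 3 d and 23.3 to 25.0 at 20 d, and scaling on the median is therefore given below where it changes a split. Arrays of a group correlated at r of 0.989 to 0.997 across the probe sets tested, above any pair from different groups (at most 0.971). Of 8 neuron and 6 glia genes, none lay below the array median on all arrays of a group. The neuron gene elav had group means of 1016 to 1070 units. Such genes would also be high in brains taken with other head tissue, so they do not check the dissection. Photoreceptor and fat body genes gave signal too, as listed below. Differences below are on the log2(signal + 16) scale, which understates changes of low signals, and carry the standard error (SE) of 1 linear model over all 20 arrays (limma). A probe set passed the threshold at an adjusted p below 0.05, with Benjamini-Hochberg adjustment over all 9806 probe sets. The 4 comparisons between groups share arrays in pairs: each group enters 1 comparison of genotypes and 1 of ages.

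Act88F encodes the actin of the indirect flight muscle. Its signals in wild type were 69.4, 71.5, 84.9, 74.1 and 73.6 units at 3 d and 17.0, 13.1, 16.3, 17.8 and 12.5 at 20 d. In null flies they were 104.1, 104.0, 98.5, 100.4 and 103.5 at 3 d and 27.3, 30.4, 32.6, 31.1 and 36.7 at 20 d. The 4 groups did not overlap, and their order was 3 d null, 3 d wild type, 20 d null, 20 d wild type. Young brains were 4.87-fold above old ones in wild type and 3.23-fold in null, as ratios of mean signals, and null was above wild type at both ages, 1.37-fold at 3 d and 2.06-fold at 20 d. The actins are a family of nearly identical genes, and the probe sequences were not analysed here, so signal from another actin cannot be told apart.

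TpnC4 encodes the troponin C through which flight muscle is activated by stretch. In wild type it gave 34.4, 26.7, 25.3, 32.5 and 22.8 units at 3 d and 3.5, 3.1, 5.1, 2.8 and 4.7 at 20 d. In null it gave 34.6, 34.3, 33.4, 45.5 and 42.5 at 3 d and 2.8, 2.2, 2.3, 3.4 and 4.6 at 20 d. The ages were far apart in both lines, while the genotypes overlapped at each age. On all 10 arrays of 20 d brains the signal lay below the array median, so TpnC4 passed the filter only through the 3 d arrays, and a difference between the ages was built into its selection. The log2 difference of 20 d from 3 d was -1.16 ± 0.075 (SE) in wild type and -1.50 ± 0.075 in null, and in wild type it ranged from -0.44 to -2.61 when 64 or 1 was added to the signal in place of 16.

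TpnC41C encodes a further troponin C, found mainly in the jump muscle of the adult thorax. Wild-type arrays gave 32.8, 32.5, 36.3, 38.5 and 37.5 units at 3 d and 11.7, 16.1, 12.5, 12.6 and 14.9 at 20 d. Null arrays gave 113.4, 107.6, 112.8, 119.4 and 117.2 at 3 d and 13.0, 10.9, 8.6, 8.9 and 8.6 at 20 d. The 3 d null arrays stood far above all others, by 3.21-fold over 3 d wild type in mean signal, and the 20 d groups overlapped at the bottom. The mean was 11.4-fold lower at 20 d than at 3 d in null and 2.62-fold lower in wild type. As with TpnC4, no array at 20 d lay above its median, so the filter was passed through the 3 d arrays alone.

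up (upheld) encodes troponin T. Its signals in wild type were 69.8, 65.8, 69.0, 60.3 and 73.4 units at 3 d and 157.8, 135.1, 128.4, 124.9 and 131.3 at 20 d. In null they were 149.8, 143.0, 137.6, 162.9 and 159.1 at 3 d and 102.7, 104.1, 110.7, 105.9 and 96.7 at 20 d. The gene thus moved in opposite directions with age, 2.00-fold higher at 20 d in wild type and 1.45-fold lower in null, with no overlap of ages in either line. The top of the order was shared by 3 d null and 20 d wild type, which overlapped, followed by 20 d null and 3 d wild type.

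Mp20 encodes a small calponin-like protein that binds actin and is found in muscles other than the flight muscle. Wild-type arrays gave 61.2, 69.0, 79.0, 76.4 and 80.8 units at 3 d and 172.7, 170.6, 186.2, 201.5 and 186.1 at 20 d. Null arrays gave 115.2, 114.4, 103.6, 131.3 and 117.0 at 3 d and 120.6, 139.4, 131.9, 126.6 and 115.9 at 20 d. Old wild-type brains were highest and young wild-type brains lowest, 2.50-fold apart in mean signal, and the null groups lay between them and overlapped each other.

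Prm encodes paramyosin and, from an internal promoter, the shorter miniparamyosin. Its stronger probe set gave 44.0, 47.1, 42.6, 53.4 and 38.8 units in wild type at 3 d and 39.7, 45.9, 46.1, 43.0 and 44.7 at 20 d. In null it gave 130.2, 133.4, 144.8, 142.0 and 151.7 at 3 d and 77.0, 72.0, 69.0, 74.2 and 74.0 at 20 d. Both null groups lay above both wild-type groups, which overlapped, and 3 d null was highest, 3.11-fold above 3 d wild type and 1.92-fold above 20 d null. The weaker probe set had the same highest group, with means of 30.0 ± 4.90 (SD, n = 5), 37.9 ± 2.58, 70.2 ± 8.11 and 50.1 ± 7.40 units in 3 d and 20 d wild type and 3 d and 20 d null. There the 3 d and 20 d arrays overlapped within each line, and its log2 difference with age in wild type was 0.24 ± 0.082 against -0.03 ± 0.057 for the stronger set.

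Mlp60A encodes a small muscle LIM protein, with a zinc-binding LIM domain. Its strongest probe set gave 55.7, 66.2, 63.9, 60.5 and 64.6 units in wild type at 3 d and 109.7, 107.5, 113.7, 103.5 and 105.3 at 20 d. In null it gave 179.7, 186.5, 171.8, 208.4 and 193.3 at 3 d and 192.6, 173.3, 194.3, 199.7 and 210.3 at 20 d. Null brains were above wild type at both ages, 3.02-fold at 3 d and 1.80-fold at 20 d, and the ages overlapped in null only among these 4 comparisons. The other 2 probe sets of Mlp60A had group means of 1.38 to 5.35 units, lay below the median on every array and were not tested.

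**Figure D1:**
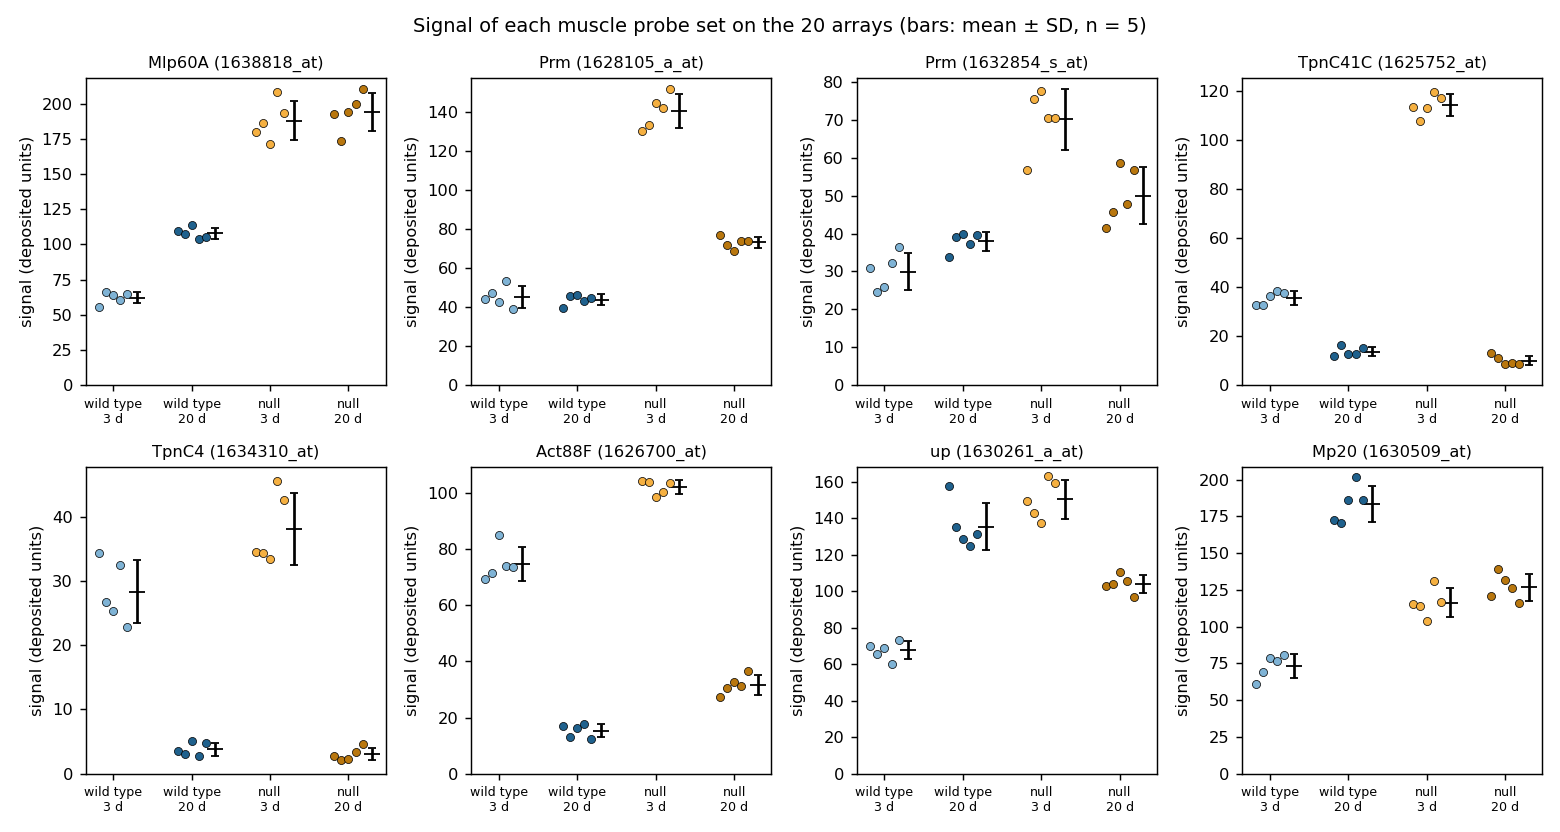
Signal of the 8 tested probe sets, in the deposited units, on the 20 arrays of the 4 groups. Points are arrays and bars show the mean ± SD of 5. The 3 d null arrays of TpnC41C sit between 107.6 and 119.4 units, above all others, while for Mp20 the 20 d wild-type arrays are highest.

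In young brains all 7 genes were higher in null than in wild type. The log2 difference was 1.38 ± 0.053 (SE) for Mlp60A, 1.36 ± 0.057 for Prm, 1.34 ± 0.058 for TpnC41C, 0.99 ± 0.058 for up, 0.57 ± 0.065 for Mp20, 0.38 ± 0.061 for Act88F and 0.29 ± 0.075 for TpnC4, with a median of 0.99 against -0.01 over all probe sets. All 7 passed the threshold for higher signal, as did 15.4% of all probe sets, and in 6 of 7 the arrays of null lay wholly above those of wild type, as in 11.5% of all probe sets. Median centring changed the split of all calls at 3 d from 1513 higher and 1806 lower to 1075 and 2632. TpnC4 was the exception in separation, and with 1 added to the signal it no longer passed. In bulk tissue, more cells of a type and more RNA per cell cannot be told apart.

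Among 40 names of other muscle genes, 27 had a probe set that passed the filter. At 3 d 15 of these were higher and 2 lower in null by limma, with a median log2 difference of 0.18. The shares over all probe sets were 15.4% and 18.4%. Thick-filament genes rose in 6 of 7 cases, led by the myosin light chain genes Mlc1 (0.90 ± 0.048, adjusted p = 1.35e-13) and Mlc2 (0.78 ± 0.052, adjusted p = 1.03e-11) and by fln, the flight-muscle protein flightin (0.63 ± 0.057, adjusted p = 2.39e-09). Of 6 thin-filament genes outside the members 3 rose: Act87E by 0.95, the tropomyosin gene Tm2 by 0.67 and the actin gene Act79B by 0.14, the last not with median centring of the arrays. The Act87E probe set is of a kind that can match several transcripts, so its signal may hold other actins. TpnC73F, another troponin C gene, had a difference of 0.07 ± 0.053 (adjusted p = 0.368). At the Z disc, where thin filaments are anchored, 4 of 5 rose, with Zasp66 at 0.68 and the larger muscle LIM gene Mlp84B at 0.64. Second probe sets gave less, with Zasp66 at 0.29 (adjusted p = 0.0488). Fhos, 1 of the 4, was at 0.18 by its stronger set and -0.02 (adjusted p = 0.833) by its second. Zasp52, at 0.19 (adjusted p = 0.0318), lost its call on leaving out any of 5 single arrays of the 3 d groups and with median centring. The calcium-handling list was mixed, with 2 higher and 2 lower of 6. Scp1, a sarcoplasmic calcium-binding protein gene, rose by 1.69 ± 0.057 (adjusted p = 2e-17) and the calcium pump gene SERCA by 0.38, while the ryanodine receptor gene RyR fell by 0.22 (not without array 5 of wild type or array 1 of null, at -0.19 and -0.15) and the metabolic gene Gpdh1 by 0.25. The 4 probe sets of Gpdh1 disagreed, at -0.25, -0.12, 0.06 and 0.07. Among the 3 regulators tested, each by its strongest probe set, the largest difference was that of salm, -0.02 (adjusted p = 0.848). A weaker probe set of mbl passed as higher, at 0.20 (adjusted p = 0.0474), while the others of mbl did not pass.

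At 20 d the members no longer moved together. Compared with wild type, null was higher for Mlp60A (0.76 ± 0.053), Act88F (0.61 ± 0.061) and Prm (0.58 ± 0.057), and lower for Mp20 (-0.48 ± 0.065), up (-0.33 ± 0.058) and TpnC41C (-0.19 ± 0.058), with TpnC4 at -0.06 ± 0.075. This made 3 of 7 past the threshold for higher and 3 for lower, where 20.9% and 24.6% of all probe sets passed, and the median of the members was -0.06 against -0.01. Median centring turned the split of all calls from 2051 higher and 2410 lower into 3064 and 1510. The arrays did not overlap in 3 cases on the higher side (15.3% of all probe sets) and in Mp20 and up on the lower side (17.8%). TpnC41C overlapped, and did not pass after quantile normalization or median centring.

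The other muscle genes were likewise divided at 20 d, with 7 of 27 higher, 9 lower and a median of -0.02. These counts are not far from the shares over all probe sets, 20.9% higher and 24.6% lower. TpnC73F fell by 0.84 (adjusted p = 4.06e-12 by limma), Mf, which encodes the thick-filament protein myofilin, by 0.51, and Zasp52 and Zasp66 by 0.31 and 0.24. The second probe set of Mf was at -0.13 (adjusted p = 0.0346) and that of Zasp66 at -0.50 (adjusted p = 0.000817). Act79B rose by 0.46 and Act87E by 0.35, as did fln by 0.36 and bt, which encodes projectin, by 0.23. RyR fell by 0.36, Gpdh1 by 0.35 and mbl, a splicing factor gene of muscle and neurons, by 0.34. Scp1, the highest of the list at 3 d, was lower in old null brains, by -0.93 ± 0.057 (adjusted p = 2.19e-12). Mlp84B, at 0.22 (adjusted p = 0.0238), lost its call without any of 4 single arrays of the 20 d groups.

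**Figure D2:**
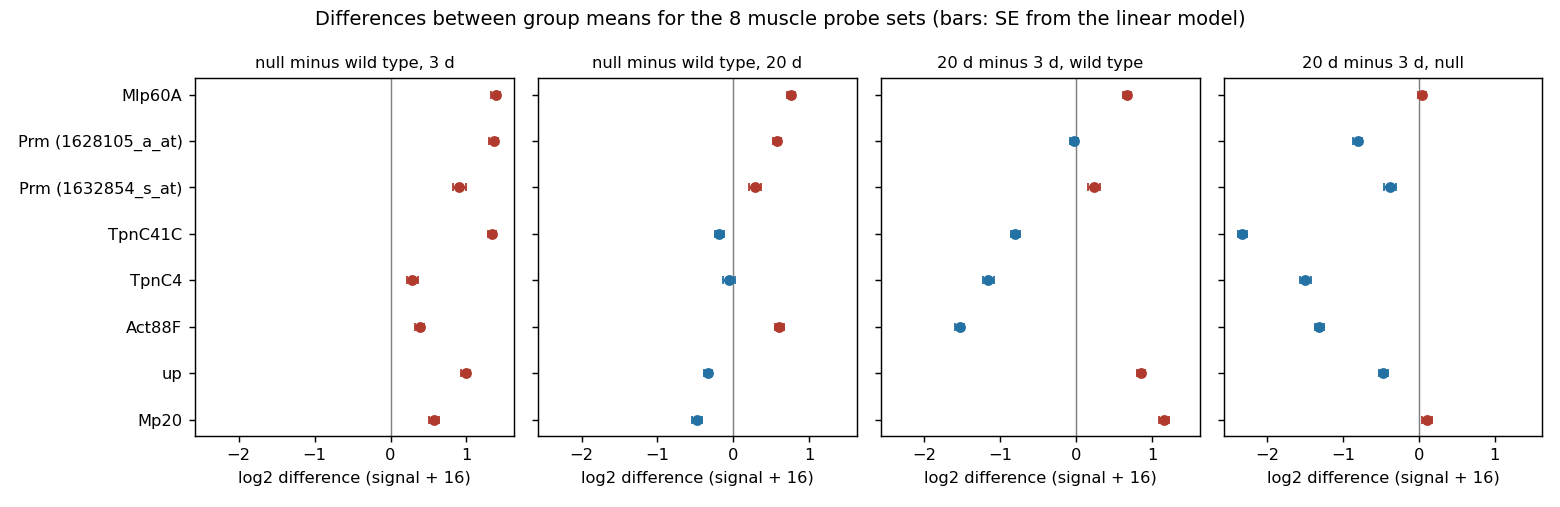
Log2 differences of the 8 tested probe sets, on the log2(signal + 16) scale, in the 4 comparisons between groups. Bars are the SE of the linear model, red is higher and blue lower. At 3 d all points lie to the right of 0, from 0.29 to 1.38, and at 20 d they lie on both sides.

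With age, the members parted in wild-type brains. Mp20 was higher at 20 d by 1.16 ± 0.065, up by 0.85 ± 0.058 and Mlp60A by 0.67 ± 0.053. The flight-muscle genes Act88F (-1.53 ± 0.061) and TpnC4 (-1.16 ± 0.075) and the jump-muscle gene TpnC41C (-0.80 ± 0.058) were lower, and Prm was at -0.03 ± 0.057. Thus 3 of 7 passed for higher and 3 for lower, with all 6 free of overlap, where 30.7% and 24.8% of all probe sets passed and 24.8% and 19.5% were free of overlap. Of the lower ones, TpnC4 and TpnC41C had passed the filter only through the 3 d arrays, which built in their direction. Of the 4 comparisons between groups, scaling moved the median of all probe sets furthest here: median centring took it from 0.02 to -0.13 and turned the split of all calls from 3013 higher and 2436 lower into 1564 and 4708, and quantile normalization into 2249 and 3176. The stronger Prm probe set then passed as lower, at -0.18 and -0.22, and the weaker lost its call, at 0.08 and 0.06.

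Of the 27 other muscle genes, 13 rose and 8 fell with age in wild type (11 and 11 under either other scaling). The median was 0.11, and 30.7% of all probe sets rose and 24.8% fell. TpnC73F rose by 1.49 ± 0.053 (adjusted p = 3.97e-17 by limma), from 83.6 ± 4.76 to 263 ± 9.03 units (SD, n = 5). Strn-Mlck, which encodes the giant protein stretchin, rose by 0.81, Zasp66 by 0.77, Mf by 0.76, bt by 0.71, Zasp52 by 0.71, Tm2 by 0.48, Mlp84B by 0.37 and Act79B by 0.27. Calcium and energy genes fell in 5 of 6 cases, among them Gpdh1 (-0.44), SERCA (-0.39) and RyR (-0.31). The flight-muscle gene fln did not follow Act88F and TpnC4, at 0.11 ± 0.057 (adjusted p = 0.106). Among muscle regulators salm fell by 0.25 and mbl by 0.17 (adjusted p = 0.0404), the latter not without any of 7 single arrays of wild type or with no filter on low signal.

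In null brains, 5 of 7 members passed the threshold for lower signal at 20 d than at 3 d, all free of overlap, where 26.0% of all probe sets passed and 16.4% were free of overlap (32.0% and 23.1% for higher). TpnC41C differed by -2.33 ± 0.058, TpnC4 by -1.50 ± 0.075, Act88F by -1.31 ± 0.061, Prm by -0.81 ± 0.057 and up by -0.47 ± 0.058. TpnC4 and TpnC41C had passed the filter only through the 3 d arrays, so a lower signal at 20 d was built into their selection. Mp20 (0.11 ± 0.065) and Mlp60A (0.04 ± 0.053) did not pass. The median was -0.81 against 0.02 over all probe sets. With 64 or 1 in place of 16 the TpnC41C difference ranged from -1.27 to -3.40.

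Other muscle genes in null fell in 13 of 27 cases and rose in 6, with a median of -0.16. Among all probe sets 26.0% fell and 32.0% rose there. Scp1 fell by 2.88 (adjusted p = 5.79e-22 by limma), from 344 ± 14.0 to 33.0 ± 4.66 units. Mlc2 fell by 0.70, SERCA by 0.63, Mlc1 by 0.60, Gpdh1 by 0.54, mbl by 0.52 and Act87E by 0.33. Act79B rose by 0.59 and TpnC73F by 0.58, both genes that also rose in wild type. bt rose by 0.32 and Zasp52 by 0.21, and salm fell by 0.20. Zasp66 fell by 0.15 (adjusted p = 0.0253), a call lost without any of 4 single null arrays and not shared by its second probe set (-0.02, adjusted p = 0.876).

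The difference between these changes with age, null minus wild type, was -1.52 ± 0.083 for TpnC41C, -1.33 ± 0.083 for up, -1.05 ± 0.092 for Mp20, -0.78 ± 0.081 for Prm, -0.62 ± 0.075 for Mlp60A and -0.34 ± 0.11 for TpnC4. Act88F was at 0.22 ± 0.086. By this interaction 6 of 7 members passed as lower, against 9.38% of all probe sets (7.61% for higher). Act88F did not pass, but did with 1 added to the signal, under either other scaling or without array 1 of 20 d null. TpnC4 did not pass with 1 added, with median centring or without any of 4 single arrays.

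The interaction was tested in the other muscle genes, where 16 of 27 were lower and 1 higher, against 9.38% and 7.61% of all probe sets. Their median was -0.27 against 0.01 over all probe sets. After median centring 12 were lower and 2 higher. That scaling moved the median of all probe sets to 0.13 and the split of all calls from 746 higher and 920 lower to 2692 and 551. The 3 d difference between the lines enters the interaction with opposite sign, and its rise in muscle genes was known when the lists were chosen. These counts are therefore no independent support. Scp1 had the largest value, -2.63 ± 0.081 (adjusted p = 4.85e-18 by limma). Thick-filament genes were lower in 6 of 7 cases, with Mlc1 at -0.94 ± 0.067 (adjusted p = 9.09e-11), Mf at -0.92 and Mlc2 at -0.65. At the Z disc 4 of 5 were lower, with Zasp66 at -0.92 ± 0.081 (adjusted p = 3.23e-09) and Zasp52 at -0.50. Of the thin-filament genes TpnC73F (-0.91), Act87E (-0.60) and Tm2 (-0.47) were lower and Act79B was higher (0.33 ± 0.054, adjusted p = 7.64e-05). The calls of bt (-0.40), fln (-0.27), Fhos (-0.25) and SERCA (-0.24) were lost with median centring.

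**Figure D3:**
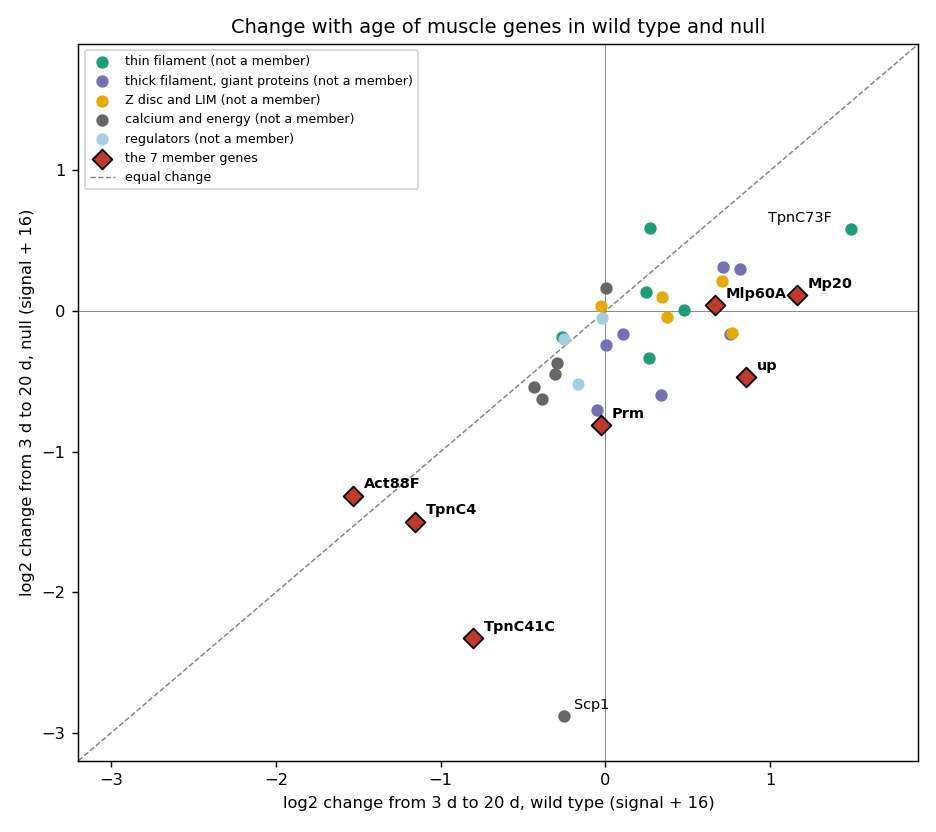
Log2 change from 3 d to 20 d in wild type (horizontal) and in null (vertical) of the 7 members (red diamonds) and of 27 other muscle genes (dots, coloured by list), both on the log2(signal + 16) scale. Most points lie below the dashed line of equal change. up is at 0.85 and -0.47, and Scp1 at -0.25 and -2.88.

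Markers of other tissues moved in some of the same comparisons. The summed signal of 20 digestive enzyme genes, mostly serine proteases of the gut, was 170 to 183 units in 3 d wild type, 92.2 to 107 in 20 d wild type, 2542 to 2598 in 3 d null and 115 to 141 in 20 d null. None was at exactly 0, but 18, 19, 8 and 18 of the 20 lay below the median on every array of these groups. Of the 10 tested, 8 lay above the median on no array outside 3 d null and so passed the filter only through that group, which fixed their direction. In wild type the digestive sum was lower at 20 d than at 3 d, mainly through Jon65Aiii (86.0 units at 3 d and 15.8 at 20 d). Of the 10 tested digestive genes, 4 passed there as lower and 2 as higher, against 24.8% and 30.7% of all probe sets. Among the members, Act88F, TpnC4 and TpnC41C were lower at 20 d in wild type, Mp20, up and Mlp60A were higher, and Prm was at -0.03. The part of gut tissue in the muscle values was not tested.

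The summed signal of the 7 members was 367 to 401 units in 3 d wild type, 491 to 512 in 20 d wild type, 802 to 910 in 3 d null and 532 to 550 in 20 d null. Fat body genes, 9 in all, summed to 2635 to 2819, 5030 to 5344, 2277 to 2379 and 2750 to 2978 units in the same order, so they were highest in old wild type, as Mp20 was. Much of the rise in wild type was Cyp4g1, also known as an oenocyte gene, at 67.6 and 1600 units at 3 d and 20 d, and tobi was higher in null at 3 d (1.11 ± 0.061, adjusted p = 2.77e-13 by limma). Of these 9, 2 lay below the median on every wild-type array and 3 on every array of each null group. Of 8 haemocyte genes, 6 rose and 1 fell with age in wild type and 7 rose and 1 fell in null, with sums of 1173 to 1287, 1461 to 1522, 1181 to 1285 and 1612 to 1749 units. Their 3 d groups had 3 (wild type) and 2 (null) of 8 genes below the median on every array, and the 20 d groups had none. He and srp lay below it on every 3 d array of both lines. They passed the filter only through the 20 d arrays, which built in their rise. Photoreceptor genes, 7 in all with none below the median on all arrays of a group, summed to 6580 to 6826, 6772 to 7291, 4473 to 4999 and 4447 to 4952 units, lower in null at both ages. Neuron genes fell with age in 6 of 8 cases in wild type and 5 of 8 in null, and glia genes in 3 of 6 in each line. Over all probe sets, 24.8% passed as lower with age in wild type and 26.0% in null, and 30.7% and 32.0% as higher. Of 7 trachea and cuticle genes, 3 or 4 lay below the median on every array of a group, and the sums were 986 to 1094, 298 to 318, 401 to 462 and 276 to 301 units, highest in young wild type. The part of these tissues in the muscle values was not tested either.

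**Figure D4:**
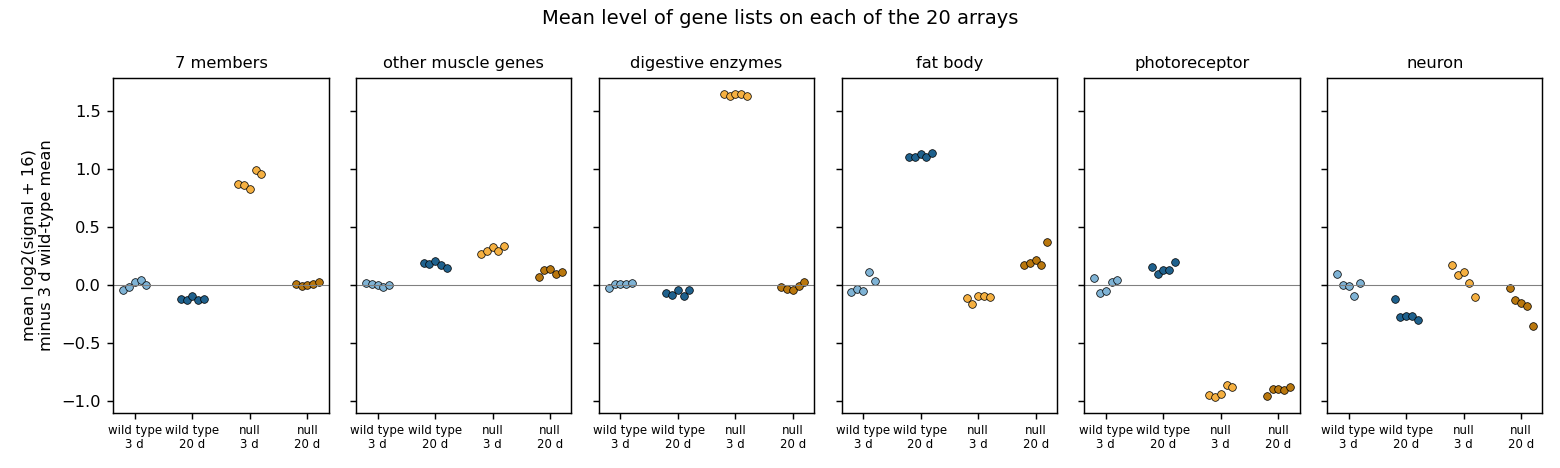
Mean log2(signal + 16) of 6 gene lists on each of the 20 arrays, minus the mean of the 3 d wild-type arrays. As group means, the digestive list is higher by 1.64 in 3 d null and within 0.07 of 0 in the 20 d groups, and the members are higher by 0.90 in 3 d null.

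Of 7697 other genes, those whose pattern over the 20 arrays was most like the mean of the members were the trypsin gene betaTry, the gut protease gene Jon65Aiv, Acbp5, the trypsin gene alphaTry and CG3868, each at a Pearson's r of 0.989 to 0.992. The arrays fall into 4 groups, and these values mainly reflect that all are highest in 3 d null. Outside 3 d null, betaTry, Jon65Aiv, Acbp5 and CG3868 had group means below the lowest array median, 19.1 units. They passed the filter only through that group, which built in their pattern. CG3868, for example, was at 0.91 ± 0.464 (SD, n = 5), 1.95 ± 0.841, 119 ± 15.4 and 3.05 ± 0.990 units in 3 d and 20 d wild type and 3 d and 20 d null. When each array was taken as its deviation from its group mean, the most alike genes were Indy, which encodes a citrate carrier, the kinase gene aPKC, CG40228, CG10395 and Sur-8, at 0.816 to 0.833. No gene was in both sets. The members did not share a common profile: over their 21 pairs, r of log2 signal ran from -0.73 to 0.93 (median 0.44). For deviations from group means it ran from -0.51 to 0.56 (median 0.01). The genes named were picked as the highest of 7697, and how high r gets by chance was not tested.

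The genes next to the members on the chromosomes passed at 3 d and by the interaction about as often as all probe sets. Of the 14 tested neighbours, 1 on each side of a member in RefSeq (assembly Release 6 plus ISO1 MT), 3 were higher and 2 lower in null at 3 d by limma. Of all probe sets, 15.4% and 18.4% passed there. By the interaction 1 neighbour was higher and 2 were lower, where 7.61% and 9.38% of all probe sets passed. Both of these lower genes, Cp18 and Fhos, flank Prm. Fhos, a formin gene that is also in the Z disc list, had an interaction of -0.25 ± 0.081 (adjusted p = 0.0386), and its second probe set did not pass (-0.21, adjusted p = 0.153). Like Prm, Fhos was higher in null at 3 d (0.18 ± 0.057, adjusted p = 0.0154), though not by its second probe set (-0.02, adjusted p = 0.833). At 3 d the neighbour with the largest difference was GstE14, a glutathione transferase gene beside Mp20, at -0.75, opposite to Mp20.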

How the data were processed

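The deposited intensity values, 1 per probe set and array, were linear signals. MAS5 and GCRMA are the tools named, per the submitters' processing notes, and the array files were MAS5 output, per the labels. Every array had a trimmed mean of 150 (2% trimmed at each end), and no further normalization was applied. Parameters and software versions are not given in the sources used here. Control probe sets (183 of 18952) were left out. Probe sets above the array median on at least 5 of 20 arrays were kept, log2(signal + 16) was fitted with 4 group means in limma 3.58.1 (R 4.3.3, robust eBayes with a trend), and p-values were adjusted by Benjamini-Hochberg over 9806 probe sets. The fit was tested on simulated data. Genes were named from probe sets with a single symbol in the platform annotation, and a gene with several probe sets is represented in lists by that with the highest mean. Of 40 names in the other muscle lists, 10 had no such probe set and 3 lay below the filter, and these are not analysed here. Named are all members, from each muscle list the called genes with the 3 largest changes per comparison (those of the interaction in part in the closing section), and the 5 genes most like the members by each measure. Other genes are named where they are exceptions or neighbours, chosen after their values were seen. Members and lists were chosen with earlier results of these data known, and the rise of muscle genes in young null brains was among them, so it is no independent support. The interaction, into which the 3 d difference enters, shares this limit. The repeat numbers were not treated as pairs in the main fit, as the labels do not say that a number marks a shared batch. Between groups, deviations correlated above 0.1 in 16 of 30 pairs with the same number. With different numbers this held in 30 of 120 pairs, so a pairing is not settled. Alternatives are given in the closing section. The number of arrays limits the precision.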

Additional observations from a re-analysis of the deposited data

Results flagged for a closer look

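The change with age differed between the lines, by the interaction term of the linear model, in 6 members and in 17 of 27 other muscle genes. Values are log2, null minus wild type. For the members, which were chosen for such changes, they are descriptions: -1.52 for TpnC41C, -1.33 for up, -1.05 for Mp20, -0.78 for Prm, -0.62 for Mlp60A and -0.34 for TpnC4. Among the other genes, Scp1 was at -2.63, Mlc1 at -0.94, Mf and Zasp66 at -0.92, TpnC73F at -0.91 and Mlc2 at -0.65. Act87E was at -0.60, Strn-Mlck at -0.51, Zasp52 at -0.50, Tm2 at -0.47, Mlp84B at -0.42 and bt at -0.40. mbl was at -0.35, fln at -0.27, Fhos at -0.25 and SERCA at -0.24, and Act79B went the other way at 0.33. In 32 sets of 5 arrays (8 probe sets in 4 groups), no array stood apart from its group by Dixon's criterion, where chance flags about 1 in 20.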

How the results depend on the processing

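The alternatives were a pseudocount of 1 or 64, no filter or a filter of 10 arrays, quantile normalization, median centring, eBayes without trend and robust settings, other probe sets of a gene (Prm, Gpdh1, Fhos, Mf and Zasp66 are described above; of the 3 SERCA probe sets 1, and of the 6 mbl probe sets 4, did not pass by the interaction), a fit of only the groups compared, a replicate block, and leaving out each array in turn. With age in null, the second Mf probe set passed as lower (-0.25) and the stronger did not (-0.17). No member value that passed the threshold changed sign, and no call of the other muscle genes reversed. Beside the lost calls given above, median centring lost the interaction of bt (-0.27), fln (-0.15), SERCA (-0.12) and Fhos (-0.12), the rise of Fhos at 3 d (0.13), and the change of Act87E (0.11) and sals (0.10) with age in wild type and of sals at 20 d (-0.13). Quantile normalization lost the same calls of Act87E and sals. The interaction of Fhos was also lost with no filter and without any of 13 single arrays (-0.25 to -0.21), the rise of Fhos at 3 d without array 3 of wild type (0.15), and the fall of sals at 20 d without array 4 of null (-0.16). A further lost call was the change with age of the weaker Prm probe set in wild type, without array 2 (0.19) or 3 (0.20) of 3 d wild type. The number of members that passed was 6 to 7 at 3 d, 5 to 6 at 20 d, 6 to 7 with age in wild type, 5 with age in null and 5 to 7 by the interaction. Other muscle genes that passed numbered 15 to 18, 15 to 18, 20 to 22, 18 to 21 and 14 to 18 in the same order. With the repeat number as a replicate block these were 17, 16, 21, 20 and 17, against 17, 16, 21, 19 and 17 without it, and the block did not change the number of members. The labels do not say that a number marks a shared batch. Deviations from group means correlated above 0.1 in 16 of 30 pairs with the same number (median 0.11) and in 30 of 120 with different numbers (median -0.03), and 7 of 20 arrays were closest to an array of their own number, so a pairing is not settled. The values of genes near background, TpnC4 above all, depend on the pseudocount.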
